A study of Mus musculus with 4 samples.

Results

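The connexin genes Gjb2, Gjb6, Gjb1, Gjb5, Gja1, Gja4, Gja5, Gjc1 and Gjc3 were examined in RNA-seq of whole mouse cochleae at postnatal day 8. These 9 genes were chosen by symbol, from 20 connexin genes among the 37239 gene identifiers in the files. Mice homozygous for the cello allele of Ikzf2 (Ikzf2cello/cello) were compared with wild-type littermates (Ikzf2+/+), with 2 libraries per genotype. Ikzf2 encodes helios, a zinc finger transcription factor of outer hair cells, and cello is a germline allele, so all cells of the mutant cochlea carry it. How many animals went into each library is not stated, so p-values measure only the spread between these 4 libraries, which may be technical. The cello libraries held 42450937 and 47463910 counted alignments and the wild-type libraries 49719984 and 42152616, and levels are given as CPM, the reads of a gene scaled to that total, of which a single read was worth 0.0201 to 0.0237. Of 20 general epithelial genes, 20 were detected in each library, as were markers of hair cells, Schwann cells, endothelium and bone.

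Connexins are membrane proteins that assemble as hexamers into hemichannels, and hemichannels of neighbouring cells dock to form gap junctions that pass ions and small metabolites. In the cochlea, Gjb2 (Cx26) and Gjb6 (Cx30) join supporting cells to each other in an epithelial network and fibrocytes of the spiral ligament to each other and to basal and intermediate cells of the stria in a connective tissue network, while hair cells lack them. Before hearing begins, hemichannels of these proteins release ATP from supporting cells, and mutations of human GJB2 are the most common cause of inherited deafness. The other members belong to further cell types. Gjb1 (Cx32) and Gjc3 (Cx29) are made by myelinating Schwann cells, Gja4 (Cx37) and Gja5 (Cx40) by arterial endothelium, Gjc1 (Cx45) by mural cells of vessels among others, Gja1 (Cx43) by osteoblasts and many connective tissue cells, and Gjb5 (Cx31.1) by skin.

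Gjb2 and Gjb6 made up nearly all of the connexin transcript. Expressed per kb of annotated exon, they held 93.9% and 92.5% of the summed level of the 9 genes in cello and 96.3% and 95.7% in wild-type. Gjb2 alone stood at 518 and 491 CPM per kb in cello and at 613 and 648 CPM per kb in wild-type. Its CPM ranked between 27 and 33 among all genes in the 4 libraries. Gjb6 followed with 159 and 139 CPM per kb in cello and 170 and 173 CPM per kb in wild-type. Gjc3 came next with 26.8 and 40.0 CPM per kb in cello and 18.7 and 25.4 CPM per kb in wild-type. These 3 levels did not overlap one another in any library. Gja4, Gja1, Gjc1 and Gjb1 lay between 1.19 and 6.99 CPM per kb over the 4 libraries, and Gja1 overlapped the other three of them in cello. In wild-type, the levels per kb of Gjc1 and Gjb1 overlapped each other, and those of Gja4 lay above those of the other three. Gja5 lay between 0.114 and 0.168 CPM per kb and Gjb5 at or below 0.0245 CPM per kb. The annotated exons of Gja1 span 10257 bases, against 3182 in its longest principal transcript. With lengths of principal transcripts, chosen after seeing the data, the means over the 4 libraries were 12.0 CPM per kb for Gja1, 5.46 for Gjc1 and 3.86 for Gja4, so that Gja1 and Gjc1 moved above Gja4, and the shares of Gjb2 and Gjb6 together were 91.7% and 91.3% in cello and 95.3% and 94.8% in wild-type.

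**Figure D1:**
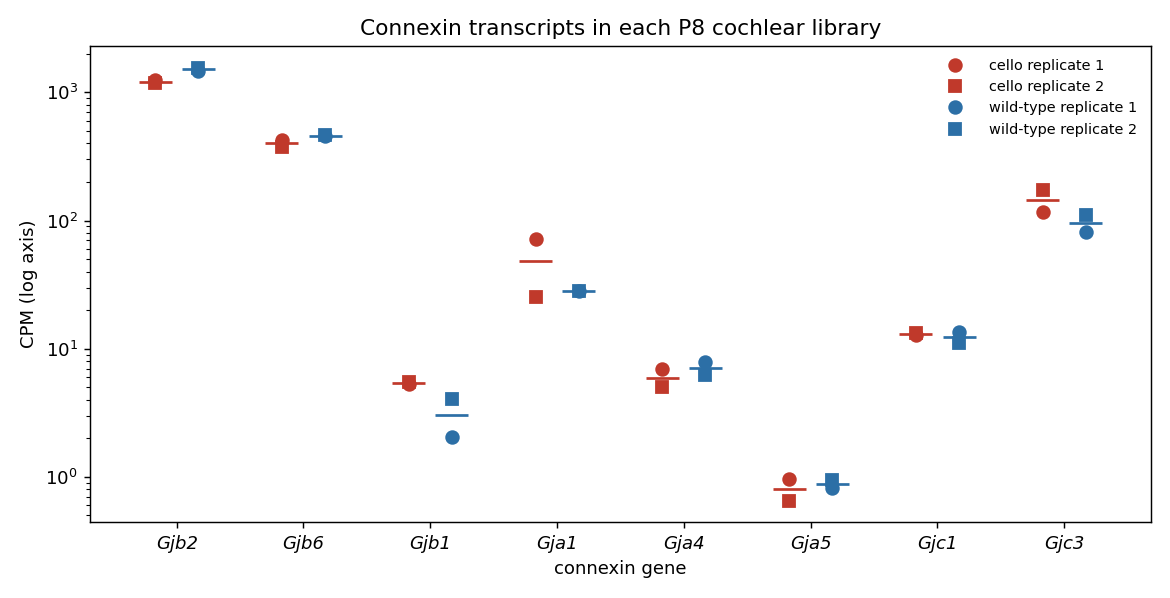
CPM of 8 connexin genes on a log axis in each library, with cello in red and wild-type in blue, circles for replicate 1, squares for replicate 2 and a bar at the mean of 2 libraries. Gjb5, with at most 2 reads in a library, is not drawn; Gja1 stands apart in cello replicate 1 at 71.7 CPM.

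In the cello cochlea, the epithelial and fibrocyte connexins Gjb2 and Gjb6 stood 19.9% and 13.1% lower than in wild-type, while the Schwann cell connexins Gjb1 and Gjc3 stood 72.6% and 49.8% higher, all from differences on the log2(CPM + 0.5) scale. For each of these 4 genes the cello and wild-type libraries did not overlap, but none passed the test across all genes. By limma with Benjamini-Hochberg adjustment over the 14721 genes tested, 0 of the 7 members that passed the filter on low values had an adjusted p below 0.05. The same fit called 0 of all genes (0%), and 1603 genes (10.9%) had an unadjusted p below 0.05, among them 1 member, Gjb1. On the reads recovered from the CPM, edgeR also called 0 genes (0%), whereas DESeq2 called 195 genes (1.32%), none of them a member. Of the 7 members tested, 3 had a log2 fold change below 0 (42.9%), against 56.6% of all genes tested, and 4 had one above 0, against 43.4%. Their median was 0.09 (with 1 library left out, -0.13 for cello replicate 1, -0.047 for wild-type replicate 2 and 0.22 for wild-type replicate 1), against -0.03 for all genes. Both cello libraries lay below both wild-type libraries for 2 members (28.6%) and above them for 2 members (28.6%), where all genes gave 28.7% and 16.9% (45.6% in either direction). The share lying below is near that of all genes. Gja5 and Gjb5 did not pass the filter.

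**Figure D2:**
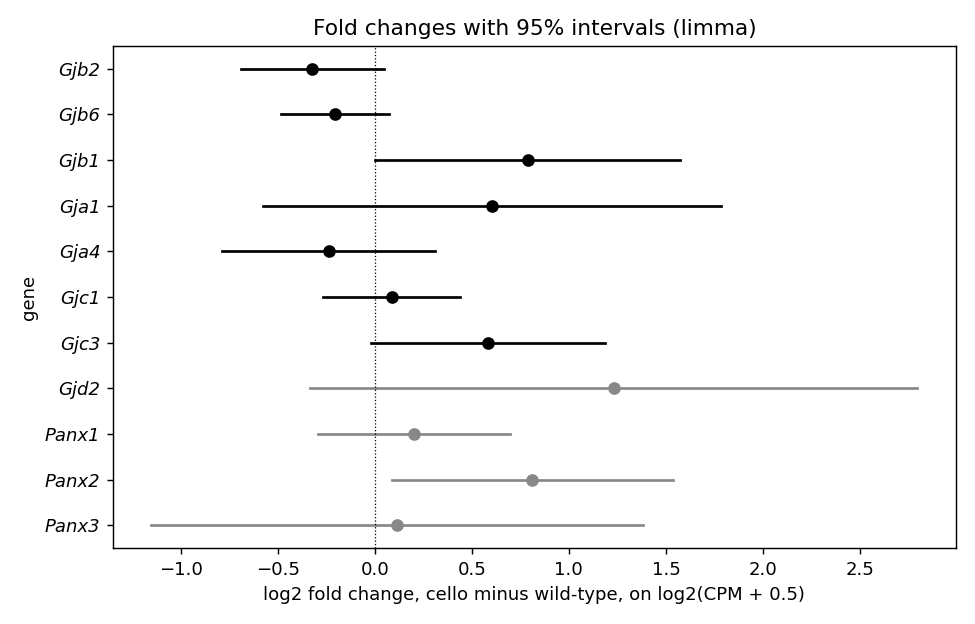
Log2 fold changes of cello minus wild-type on the log2(CPM + 0.5) scale with 95% intervals from limma, for the 7 connexins tested (black) and for Gjd2 and the pannexins (grey). The intervals of Gjb1 (from 0.0017) and Panx2 (from 0.09) lie above 0 before adjustment for the number of genes, and none of the genes drawn passed after it.

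Gjb2 (ENSMUSG00000046352, chromosome 14, 57098600 to 57104702 of GRCm38, minus strand), the gene of the major cochlear connexin, had 1247 and 1181 CPM in cello, against 1474 and 1560 CPM in wild-type. Both cello libraries were low and both wild-type libraries high, and the gap between the groups was wider than the gap within either. The means were 1214 ± 46.5 CPM in cello and 1517 ± 60.4 CPM in wild-type (SD, n = 2 each), and the 4 ratios of a cello to a wild-type library ran from 0.758 to 0.846. The log2 fold change was -0.32 (SE 0.15, 95% interval -0.69 to 0.05), with an unadjusted p of 0.077 and an adjusted p of 0.488 in limma. Of all genes tested, 6.68% had a more negative fold change. In such whole-tissue libraries, fewer cells of a type and less RNA per cell cannot be told apart.

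Gjb6 (ENSMUSG00000040055, chromosome 14, 57123303 to 57133611, minus strand), whose protein mixes with that of Gjb2 in the same channels, stood at 426 and 373 CPM in cello, against 455 and 463 CPM in wild-type. The wild-type libraries were close together and cello replicate 2 was the lowest of the 4. The means were 399.5 ± 37.7 CPM in cello and 459 ± 5.85 CPM in wild-type (SD, n = 2 each). The log2 fold change was -0.20 (SE 0.11, 95% interval -0.48 to 0.07), with an adjusted p of 0.539 in limma. Leaving out cello replicate 1 gave -0.30, and leaving out cello replicate 2 gave -0.11. The ratio of Gjb2 to Gjb6, each per kb, was 3.25 and 3.52 in cello and 3.60 and 3.74 in wild-type, without overlap. An exact permutation test of that ratio gave a two-sided p of 0.333, the smallest that 2 against 2 libraries allow.

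Gjb2 and Gjb6 are neighbours on the same strand of chromosome 14, and so the 250 bases before each start are shown, from RefSeq on GRCm38.p6 and 5′ to 3′ on the minus strand, at chr14:57104703-57104952 for Gjb2 and chr14:57133612-57133861 for Gjb6. Capitals mark the GC box GGGCGG on either strand.
Gjb2: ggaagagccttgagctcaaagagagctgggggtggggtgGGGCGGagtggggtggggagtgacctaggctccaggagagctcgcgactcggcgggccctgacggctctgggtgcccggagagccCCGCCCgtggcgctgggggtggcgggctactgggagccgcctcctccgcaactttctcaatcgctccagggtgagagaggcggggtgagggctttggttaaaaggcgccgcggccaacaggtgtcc
Gjb6: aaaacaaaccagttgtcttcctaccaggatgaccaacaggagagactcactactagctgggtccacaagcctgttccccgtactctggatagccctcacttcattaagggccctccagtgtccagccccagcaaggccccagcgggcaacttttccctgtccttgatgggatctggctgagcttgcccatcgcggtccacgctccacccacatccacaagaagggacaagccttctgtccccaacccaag
The Gjb2 window is rich in G and C (69.2%, against a median of 52.4% over 32851 promoter windows of the same length) and holds 2 GC boxes, 211 and 126 bases before the start. The Gjb6 window has 56.8% G and C and holds 0 GC boxes. Of all windows, 32.7% hold at least 1 GC box. Among protein-coding genes within 250 kb of the Gjb2 start, Cryl1, which encodes lambda-crystallin, stood at 32.3 and 37.5 CPM in cello and at 44.2 and 41.7 CPM in wild-type (log2 fold change -0.30, SE 0.10, adjusted p = 0.441 in limma). Zmym2, a zinc finger gene on the other side, had a log2 fold change of 0.03 (SE 0.08). The lens connexin gene Gja3, also there, had between 7 and 11 reads in each library and was not tested.

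Epithelial genes at large also had lower values in cello, without passing the test. All 20 of the 20 epithelial genes tested had a log2 fold change below 0, with a median of -0.42 and 0 passing the adjusted threshold, and 17 of them lay lower in cello without overlap. Of all genes tested, 56.6% were below 0 and 28.7% lay lower without overlap. The summed level of the 20 genes was 1303 and 1321 CPM in cello and 1629 and 1765 CPM in wild-type, and 0 of them were at 0 in any library. Ap1m2, an epithelial clathrin adaptor gene, stood at 35.5 and 39.3 CPM in cello, against 54.6 and 54.4 CPM in wild-type. The tight junction gene Marveld3 had a log2 fold change of -0.62 and the protease inhibitor gene Spint2 one of -0.49. Gjb2 amounted to 95.8% and 89.4% of the summed CPM of the 20 epithelial genes in cello and to 90.5% and 88.3% in wild-type, which overlap. Gjb6 amounted to 32.7% and 28.2% of that sum in cello and to 27.9% and 26.2% in wild-type, higher in cello without overlap. Of 18 supporting cell genes tested, 16 were below 0 (median -0.27, and 0.02 without cello replicate 1, 0 passing). Of the 18, 7 lay lower in cello without overlap, 1 lay higher and 10 overlapped. The summed levels of the list were 4034 and 6374 CPM in cello and 6578 and 6599 CPM in wild-type. Tectb alone stood at 748 and 2633 CPM in cello and at 2474 and 2594 CPM in wild-type. Of 12 genes of the stria vascularis, whose basal and intermediate cells are joined by these connexins, 12 were below 0 (median -0.38, 0 passing), 10 of them without overlap, with sums of 2799 and 2824 CPM in cello and 3399 and 3808 CPM in wild-type. Fibrocyte genes had 4 of 9 members below 0 (median 0.02, and 0.18 without wild-type replicate 1, 0 passing), and their sums of 9612 and 6738 CPM in cello and 8054 and 7285 CPM in wild-type overlapped. Hair cells, which lack these connexins, had lower values too: 10 of 10 outer hair cell genes (median -0.51) and 8 of 10 general hair cell genes (median -0.51) were below 0, 0 passing. The outer hair cell sums were 270.3 and 248 CPM in cello and 440.4 and 439.8 CPM in wild-type. The part of any of these cell types in the values of Gjb2 and Gjb6 was not tested.

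Genes whose proteins bind or regulate connexins stood mostly lower in cello, without passing the test. Of 14 genes for partners and regulators of connexins, 11 had a log2 fold change below 0 (median -0.10, against -0.03 for all genes), and 0 passed. Both cello libraries lay below both wild-type libraries for 8 of the 14. Of all genes tested, 56.6% were below 0 and 28.7% lay lower in this way. Tjp1, whose tight junction protein binds connexin tails, had a log2 fold change of -0.10 (SE 0.08), and Tjp3 one of -0.61 (SE 0.12). Among 204 listed genes, those closest in pattern to Gjb2 over the 4 libraries included Lbh and Fgfr3. Lbh is in the outer hair cell list and Fgfr3, a receptor gene, in the supporting cell list. Their root mean square differences from Gjb2 on the centred log2 scale were 0.024 and 0.034. Closest to Gjb6 were Hey1 of the arterial endothelium list (0.022), the cotransporter gene Slc12a2 of the fibrocyte list (0.027) and Fgfr3 (0.046). Gjb2 and Gjb6 differed from each other by 0.074. These distances are a description over 4 libraries, with no test.

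Gap junctions are one link in the route by which potassium returns from hair cells to the stria. Of 11 genes for potassium channels, pumps and transporters on that route, 9 had a log2 fold change below 0 (median -0.32), 7 did not overlap and lay lower in cello, and 0 passed in limma. Of all genes tested, 56.6% were below 0 and 28.7% lay lower without overlap. The median of the 11 genes was -0.16 without cello replicate 2 and also without wild-type replicate 2. Several of the 11, Kcne1 and Kcnq1 among them, are also in the stria list, and others are in the supporting cell or fibrocyte list. These lists are therefore not separate observations. Kcne1, a subunit of the channel that secretes potassium into endolymph, stood at 281 and 293 CPM in cello and at 361 and 409.6 CPM in wild-type. Its partner Kcnq1 had a log2 fold change of -0.38 (SE 0.12), and Slc12a7, a potassium chloride cotransporter gene of supporting cells, one of -0.34 (SE 0.10). For both, the cello libraries lay below the wild-type libraries without overlap, as for Gjb2 and Gjb6.

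Connexins of myelinating cells had higher values in cello, without passing the test. Gjc3 (ENSMUSG00000056966, chromosome 5, 137953461 to 137963098, minus strand) stood at 117 and 174 CPM in cello, against 81.4 and 111 CPM in wild-type. The groups did not overlap, but cello replicate 1 and wild-type replicate 2 were only 1.05-fold apart. The log2 fold change was 0.58 (SE 0.24, 95% interval -0.02 to 1.18), with an unadjusted p of 0.055 and an adjusted p of 0.463 in limma. Leaving out 1 library gave 0.29 (cello replicate 2), 0.36 (wild-type replicate 1), 0.80 (wild-type replicate 2) or 0.87 (cello replicate 1). The genes closest in pattern to Gjc3 among the 204 included Prox1, a transcription factor gene of supporting cells (root mean square difference 0.12), and the cartilage gene Comp (0.20). Prox1 was the only supporting cell gene tested that lay higher in cello without overlap, and Comp had only 30 to 70 reads in a library.

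Gjb1 (ENSMUSG00000047797, chromosome X, 101376378 to 101385629, plus strand), whose human counterpart is mutated in X-linked Charcot-Marie-Tooth disease, was far less abundant. It stood at 5.28 and 5.48 CPM in cello (224 and 260 reads) and at 2.03 and 4.08 CPM in wild-type (101 and 172 reads). The cello libraries were alike, and the wild-type libraries differed 2.01-fold from each other. The log2 fold change was 0.79 (SE 0.31, 95% interval 0.0017 to 1.57), with an unadjusted p of 0.0497 and an adjusted p of 0.459 in limma. Leaving out wild-type replicate 1 gave 0.36, and leaving out wild-type replicate 2 gave 1.22. Gjc3 exceeded Gjb1 per kb by 8.66-fold and 12.5-fold in cello and by 15.7-fold and 10.6-fold in wild-type.

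Most Schwann cell and myelin genes also had higher values in cello. Of 15 Schwann cell and myelin genes tested, 14 had a log2 fold change above 0 and 13 did not overlap and lay higher in cello, with a median of 1.16 and 0 passing in limma. Of all genes tested, 43.4% were above 0 and 16.9% lay higher without overlap. The summed level of the 15 genes was 4357 and 5280 CPM in cello and 1379 and 3085 CPM in wild-type, so that wild-type replicate 1 held the least, as it did for Gjb1 and Gjc3. None of the 15 was at 0 in any library. The 1 gene below 0 was Sox10, a transcription factor gene, at 119 and 118 CPM in cello and 125 and 134 CPM in wild-type. Its groups did not overlap, whereas those of Erbb3, a receptor gene of the list, did. Drp2, a gene of the Schwann cell dystroglycan complex, stood at 100.5 and 73.6 CPM in cello and at 33.7 and 45.4 CPM in wild-type. Egr2, a transcription factor gene of myelination, had a log2 fold change of 1.19 (SE 0.29) and Ncmap, a myelin protein gene, one of 1.09 (SE 0.31). The median of the list became 0.61 when wild-type replicate 1 was left out and 1.63 when wild-type replicate 2 was. Gjc3 amounted to 2.68% and 3.30% of the summed CPM of the list in cello and to 5.91% and 3.59% in wild-type. The exact permutation p of that share was 0.333, the smallest that 2 against 2 libraries allow. Oligodendrocytes also make Gjb1 and Gjc3, and central glia genes did not move one way. Of the 4 central glia genes tested, 3 had a log2 fold change below 0 (median -0.71, and -0.18 without wild-type replicate 2, 0 passing). The oligodendrocyte gene Mobp stood at 0.895 and 0.864 CPM in cello and at 2.70 and 4.77 CPM in wild-type, without overlap. The glutamate transporter gene Slc1a2 lay the other way, also without overlap, at 80.8 and 101.1 CPM in cello and 69.0 and 63.8 CPM in wild-type, and made up most of the summed level of the 8 genes of the list. That sum was 102 and 127 CPM in cello and 99.4 and 114 CPM in wild-type, 0 genes were at 0 in any library, and Opalin stood at 0.119 CPM or less. The part of Schwann cell or central glia content in the values of Gjb1 and Gjc3 was not tested.

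The start regions of these genes are shown because both had higher values in cello, again as 250 bases from RefSeq on GRCm38.p6, 5′ to 3′ on the strand of the gene. The window of Gjb1, at chrX:101383482-101383731, precedes the most downstream of its 4 RefSeq starts, chosen with the matches of all 4 known, and that of Gjc3 is at chr5:137963099-137963348. Capitals mark the GC box GGGCGG, the TATA box TATAAA and the SOX family cores ACAATG and ACAAAG, each searched on both strands.
Gjb1: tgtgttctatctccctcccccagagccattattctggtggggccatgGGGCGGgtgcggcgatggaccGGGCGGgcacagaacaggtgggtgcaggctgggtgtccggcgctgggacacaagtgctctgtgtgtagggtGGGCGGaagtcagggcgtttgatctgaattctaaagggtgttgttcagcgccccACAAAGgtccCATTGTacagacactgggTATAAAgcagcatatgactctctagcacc
Gjc3: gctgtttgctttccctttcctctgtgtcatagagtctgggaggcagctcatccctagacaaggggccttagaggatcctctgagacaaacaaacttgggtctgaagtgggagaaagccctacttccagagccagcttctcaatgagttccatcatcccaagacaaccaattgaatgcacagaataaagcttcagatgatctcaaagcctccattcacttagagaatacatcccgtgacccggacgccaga
In the Gjb1 window, 3 GC boxes start 203, 182 and 111 bases before the transcription start, ACAAAG starts 57 bases before it, ACAATG lies on the other strand 47 bases before it and TATAAA starts 29 bases before it. No 2 of these matches overlap. Of the windows of the other 3 Gjb1 starts, 1 holds a single ACAAAG and the rest hold 0 matches, and none of the 4 starts coincides with a GENCODE transcript start. The Gjc3 window holds 0 matches to any of these motifs. Over all 32851 windows, TATAAA occurs in 12.4%, ACAATG in 10.7% and ACAAAG in 16.5%. The files count reads per gene and not per start, so which start was used is not known.

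Gja1 (ENSMUSG00000050953, chromosome 10, 56377330 to 56402513, plus strand), the most widespread connexin of the body, was high in 1 library. It stood at 71.7 and 25.5 CPM in cello, against 28.1 and 28.0 CPM in wild-type. The wild-type libraries were nearly equal and the cello libraries 2.81-fold apart, with cello replicate 1 above and cello replicate 2 below both wild-type libraries. The log2 fold change of 0.60 (SE 0.46, adjusted p = 0.645 in limma) was -0.13 without cello replicate 1 and 1.34 without cello replicate 2. Several marker lists stood apart in the same library, bone among them. The summed level of 10 bone genes was 3263 and 1221 CPM in cello and 1572 and 1723 CPM in wild-type, and 0 of them were at 0 in any library. Of the 10, 8 had a log2 fold change above 0 (median 0.16, and -0.58 without cello replicate 1, 0 passing), against 43.4% of all genes tested. All 10 overlapped between the groups, where 45.6% of all genes did not. Gja1 amounted to 2.20% and 2.09% of the bone sum in cello and to 1.79% and 1.62% in wild-type. Phex, an endopeptidase gene of osteoblasts and osteocytes, stood at 168 and 63.0 CPM in cello and at 77.0 and 72.1 CPM in wild-type. It was the closest of 204 genes in pattern to Gja1 (0.081), followed by Otos of the fibrocyte list (0.16) and Esam of the endothelial list (0.25). Summed levels were also highest in cello replicate 1 for the fibrocyte, endothelial, mural cell and cartilage lists, and for neutrophil and marrow genes, at 82.6 and 7.84 CPM in cello and 19.4 and 40.4 CPM in wild-type. The part of any of these tissues in the level of Gja1 was not tested.

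Vascular connexins overlapped between the genotypes. Gja4 (ENSMUSG00000050234, chromosome 4, 127311421 to 127314039, minus strand) stood at 6.90 and 4.99 CPM in cello and at 7.90 and 6.22 CPM in wild-type, and its groups overlapped. Its log2 fold change was -0.24 (SE 0.22, 95% interval -0.78 to 0.31, adjusted p = 0.701 in limma), and leaving out 1 library gave values from -0.45 (cello replicate 1) and -0.40 (wild-type replicate 2) to -0.07 (wild-type replicate 1) and -0.02 (cello replicate 2). Gjc1 (ENSMUSG00000034520, chromosome 11, 102799579 to 102819700, minus strand) differed little between the genotypes, at 12.7 and 13.3 CPM in cello and at 13.5 and 11.1 CPM in wild-type. Its log2 fold change was 0.09 (SE 0.14, 95% interval -0.26 to 0.44, adjusted p = 0.827 in limma), and leaving out wild-type replicate 2 gave -0.05, wild-type replicate 1 0.22. Gja5 (ENSMUSG00000057123, chromosome 3, 96904693 to 97077416, plus strand) had 41 and 31 reads in cello (0.966 and 0.653 CPM) and 41 and 40 reads in wild-type (0.825 and 0.949 CPM). It was below the filter. Its locus overlaps Gpr89 on the other strand only from 96904693 to 96905346. How reads in that stretch were counted is not known, as the strand setting is unknown, and ambiguous reads had an entry of their own. Endothelial genes gave sums of 449 and 299.5 CPM in cello and 336 and 333 CPM in wild-type. All 12 of 12 overlapped between the groups, where 45.6% of all genes tested did not. Of the 12, 10 were above 0 (median 0.16, and -0.12 without cello replicate 1, 0 passing), against 43.4% of all genes. The sums of 8 arterial endothelium genes were 230 and 200 CPM in cello and 214 and 217 CPM in wild-type. For 9 mural cell genes the sums were 701 and 458 CPM in cello and 432 and 380 CPM in wild-type. Rgs5 alone stood at 441 and 281 CPM in cello and at 229 and 178 CPM in wild-type. Of the 9, 8 overlapped between the groups and 1 lay higher in cello (median 0.06, and -0.18 without cello replicate 1, 0 passing).

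Gjb5 (ENSMUSG00000042357, chromosome 4, 127354809 to 127358181, minus strand) had 0 and 2 reads in cello and 0 and 1 read in wild-type. These counts lie within the 3 reads that a count of 0 allows, which correspond to 0.0603 to 0.0712 CPM and cover counting error only, so no fold change is given.

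**Figure D3:**
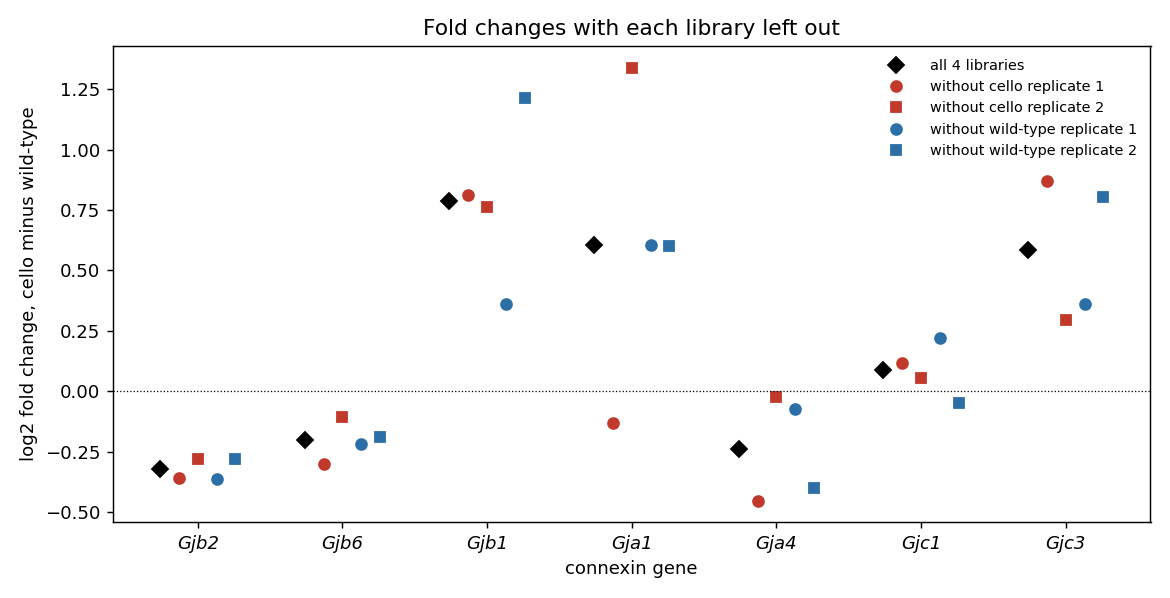
Log2 fold changes of cello minus wild-type for the 7 connexins tested, with all 4 libraries (black) and with each library left out (red for a cello and blue for a wild-type library). Gjb2 stays between -0.36 and -0.28, whereas Gja1 runs from -0.13 to 1.34.

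Of the 11 other connexin genes in the files, 1 passed the filter on low values, and 4 had at most 3 reads in each library. Gjd2 (Cx36), the connexin of electrical synapses between neurons, stood at 6.27 and 8.24 CPM in cello and at 1.21 and 5.79 CPM in wild-type. Its groups did not overlap, and wild-type replicate 1 was far below the rest. The log2 fold change of 1.23 (SE 0.61, adjusted p = 0.515 in limma) became 0.29 when wild-type replicate 1 was left out and 2.17 when wild-type replicate 2 was. Of 12 spiral ganglion neuron genes, 10 had a log2 fold change above 0 (median 1.14, and 0.48 without wild-type replicate 1, 0 passing). Of the 12, 8 lay higher in cello without overlap. Among all genes tested, 43.4% were above 0 and 16.9% lay higher without overlap. The sums of the 12 genes were 796 and 975 CPM in cello and 250 and 627 CPM in wild-type, with 0 of them at 0 in any library. The part of these neurons in the level of Gjd2 was not tested.

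Pannexins form membrane channels of similar shape without belonging to the family. Panx2, a neuronal member, stood at 8.29 and 6.59 CPM in cello and at 2.997 and 5.29 CPM in wild-type (log2 fold change 0.81, SE 0.28, adjusted p = 0.441 in limma). Its log2 fold change became 0.45 when wild-type replicate 1 was left out and 1.18 when wild-type replicate 2 was. Panx1, the widely expressed ATP release channel, stood at 8.29 and 9.92 CPM in cello and at 6.72 and 9.09 CPM in wild-type, which overlap. Panx3, a gene of osteoblasts and cartilage, stood at 53.0 and 17.8 CPM in cello and at 31.8 and 25.4 CPM in wild-type, with cello replicate 1 the highest and cello replicate 2 the lowest, as for Gja1. Its log2 fold change was 0.12 with all libraries and with 1 library left out ran from -0.66 (cello replicate 1) and -0.042 (wild-type replicate 2) to 0.27 (wild-type replicate 1) and 0.89 (cello replicate 2).

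**Figure D4:**
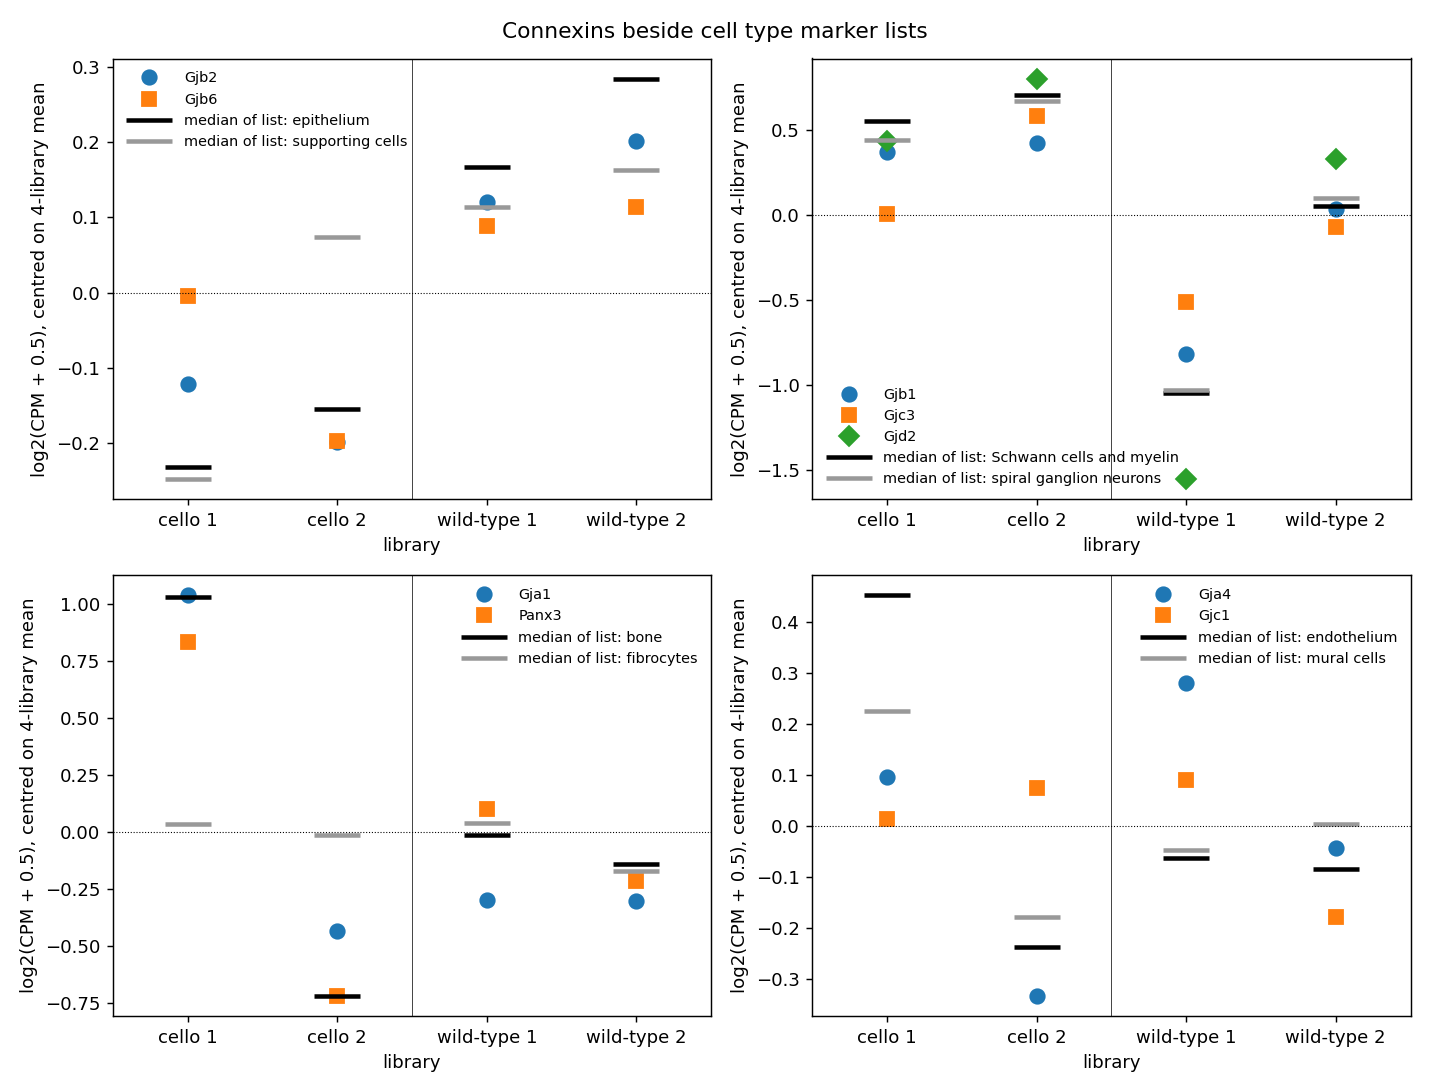
Levels of connexins and related genes (symbols) and medians of marker lists (bars) as log2(CPM + 0.5) centred on the 4-library mean, by library. Gjb2 and Gjb6 are lowest in cello replicate 2, the Schwann cell median is lowest in wild-type replicate 1 at -1.05, and the bone median, like Gja1 and Panx3, is highest in cello replicate 1 at 1.03.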

How the data were processed

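RNA of whole cochleae was sequenced from 2 cello and 2 wild-type samples. The authors deposited CPM per gene (unit read from the values), relative to every counted alignment, entries without a gene included. Such entries were left out here, and genes held 70.0% to 72.8% of each total. The submitters' processing notes name TopHat and GRCm38, and no counter, strand setting or annotation release was stated. Dividing by the CPM of 1 read gave whole numbers for 100% of values (tolerance 0.001).

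GENCODE M21 gave symbols and positions for 36588 of 37239 identifiers. The fit in limma 3.58.1 under R 4.3.3 took log2(CPM + 0.5) by genotype with a trended variance, for 14721 genes reaching 1 CPM in 2 or more of the 4 libraries. Two-sided p-values were adjusted by the Benjamini-Hochberg method and called below 0.05. Fold changes on this scale are too small for low genes. Values after ± are SD over 2 libraries. As alternatives, edgeR 4.0.16 and DESeq2 1.42.0 tested the recovered reads, and pseudocount, filter, scaling, variance trend, replicate block and single libraries were varied. The limma, edgeR and DESeq2 fits with all libraries were tested on simulated data.

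Members and lists were chosen with earlier results of these data known. All members and all tested genes among other connexins and pannexins were named, and of each other list up to 3 genes with the smallest p. Tjp1, Opalin, Gja3, Tectb, Sox10 and Erbb3 were named after their values were seen. Some genes that this rule names are not reported here. Genes of closest pattern had the smallest root mean square difference of centred log2(CPM + 0.5).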

Additional observations from a re-analysis of the deposited data

How the results depend on the processing

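The 7 tested connexins kept their direction with pseudocounts of 0.1 and 1, TMM and median-of-ratios rescaling, CPM over the reads in genes, edgeR and DESeq2. Other settings were no filter, a mean of 5 CPM required (which leaves out Gjb1), limma without the trend and the replicate block. These cannot change a log2 fold change in this design, so they bear on the p-values only. Under all these settings, 0 of the tested connexins passed an adjusted p of 0.05. With each library left out, 2 turned round: Gja1 to -0.13 without cello replicate 1 (range -0.13 to 1.34) and Gjc1 to -0.047 without wild-type replicate 2 (range -0.047 to 0.22). The number of members below 0 was 3, and 3 to 4 with a library left out. Without the filter it was 4 of 9. The number of all genes called was 0, except 195 in DESeq2 and 0 to 90 with a library left out, the 90 without wild-type replicate 2, all of them higher. The cause was not tested. The lowest adjusted p of a member under any alternative was 0.089, for Gja1 without cello replicate 2. The median log2 fold change of all genes was -0.03, and at most 0.01 after rescaling. Levels per kb with principal transcripts, chosen after seeing the data, are given beside the levels. Replicate numbers are shared by the genotypes, but nothing in the labels pairs them, and the deviations of equal numbers correlated at 0.13. With the replicate block, 0 genes were called, and the log2 fold changes stayed as they were, which the balanced design fixes in advance. Leaving out a library leaves 1 sample in a group, which is then assumed to vary like the other genotype. Among the members, Gjb5 is limited by depth, and Gja5, with 31 to 41 reads in each library, was left out by the filter of 1 CPM.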
